A study of Mus musculus with 40 samples.

Results

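The CPEB family, the cytoplasmic polyadenylation element binding proteins, comprises the genes Cpeb1, Cpeb2, Cpeb3 and Cpeb4, and these 4 of the 27179 genes in the expression table were taken by their symbols. The values came from poly(A) RNA sequencing of bone marrow-derived macrophages (BMDMs), cells grown from femoral marrow of adult male mice in medium that supplied M-CSF. 4 wildtype (WT) mice and 4 mice labelled CPEB4-KO (Cpeb4-/-), both on a mixed C57BL/6J and 129 background, each gave 5 libraries, which were untreated or exposed to 10 ng/ml lipopolysaccharide (LPS), a component of the bacterial wall, for 1, 3, 6 or 9 hr. This gave 40 libraries in 10 groups of 4. Per the methods the Cpeb4-/- mice lack the gene in the whole animal and not in myeloid cells alone. The labels give 2 batches with 2 mice of each genotype in each, and the mice of each genotype came from 3 cages, none of which held both genotypes. The table holds regularised log (rlog) values, a log2 scale on which the differences of low or variable genes are shrunk towards 0, and all differences below are on that scale. It holds no read counts, so the depth behind a value is unknown from it.

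CPEB proteins bind the cytoplasmic polyadenylation element (CPE), a short U-rich sequence in the 3′ untranslated region (3′ UTR) of an mRNA, and they either hold the poly(A) tail short and the mRNA silent or recruit enzymes that lengthen the tail and promote translation. Cpeb1 is the founding member, known from the meiotic cell cycle of oocytes, while Cpeb2, Cpeb3 and Cpeb4 form a separate branch with closely related RNA-binding domains. In macrophages LPS acts through Toll-like receptor 4, and many of the mRNAs it induces carry AU-rich elements with the pentamer AUUUA, bound by the decay factor tristetraprolin (gene Zfp36) and by the stabilising protein HuR (gene Elavl1).

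The 3′ UTRs of the family differed in how many of these elements they carried, and a window of each is shown because the elements are those the family and its regulators bind. In the longest annotated 3′ UTR of each gene (GENCODE M21, build GRCm38), the pentamer ATTTA was present 17 times in Cpeb4, 14 times in Cpeb2, 7 times in Cpeb3 and 5 times in Cpeb1, with overlapping copies counted. 1.67% of 20402 genes had at least as many as Cpeb4 and 3.02% as many as Cpeb2, against 13.5% for Cpeb3 and 21.8% for Cpeb1. Per kilobase the members were closer, with 4.14 copies in Cpeb4, 3.8 in Cpeb1, 3.71 in Cpeb2 and 1.96 in Cpeb3, densities reached by 11.6%, 13.8%, 14.5% and 36.6% of genes. The longer nonamer TTATTTATT, found in 7.72% of the genes, was present in Cpeb1, in 1 copy, and had no match in the other members. The first windows hold the largest number of pentamers in any 30 bases of each 3′ UTR, with ATTTA in capitals.
Cpeb4 AU-rich window, chr11:31932265-31932294, strand plus: ggagtgcgcgtATTTATTTAactgacttcc
Cpeb2 AU-rich window, chr5:43288141-43288170, strand plus: atgttaattATTTAgatATTTAatttcgca
Cpeb3 AU-rich window, chr19:37022563-37022592, strand minus: taATTTAattctgcaagaaaatgATTTAac
Cpeb1 AU-rich window, chr7:81347977-81348006, strand minus: tacacttgggtttATTTAttaaagcgcttt

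For the CPE the letters TTTTAT and TTTTAAT were counted, and the family was again uneven. Cpeb2 held 24 copies in 3778 bases, a number reached by 0.118% of genes, and Cpeb4 held 17 in 4102 bases, reached by 0.578%. Cpeb3 held 6 in 3569 bases and Cpeb1 4 in 1315 bases. Long 3′ UTRs hold more of any short motif, and per kilobase the CPE count was 6.35 in Cpeb2, 4.14 in Cpeb4, 3.04 in Cpeb1 and 1.68 in Cpeb3, against a median over genes of 0.683. These densities were reached by 2.13%, 5.8%, 11.0% and 28.2% of genes. The 3′ UTR of Cpeb3 was nearly as long as that of Cpeb2 and held far fewer CPE copies. The windows with most copies in 30 bases follow, with the CPE in capitals.
Cpeb2 CPE window, chr5:43289147-43289176, strand plus: ttttgggTTTTATTTTATTTTAATagtagt
Cpeb4 CPE window, chr11:31933759-31933788, strand plus: taatataaataaTTTTAATaaaTTTTATtt
Cpeb3 CPE window, chr19:37024714-37024743, strand minus: agaaatgggtctTTTTATtattattattat
Cpeb1 CPE window, chr7:81347586-81347615, strand minus: agagaaaaattaTTTTATttaaaactggac
A match of letters is a description and not a bound site, and which 3′ UTR these macrophages use was not measured.

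**Figure D1:**
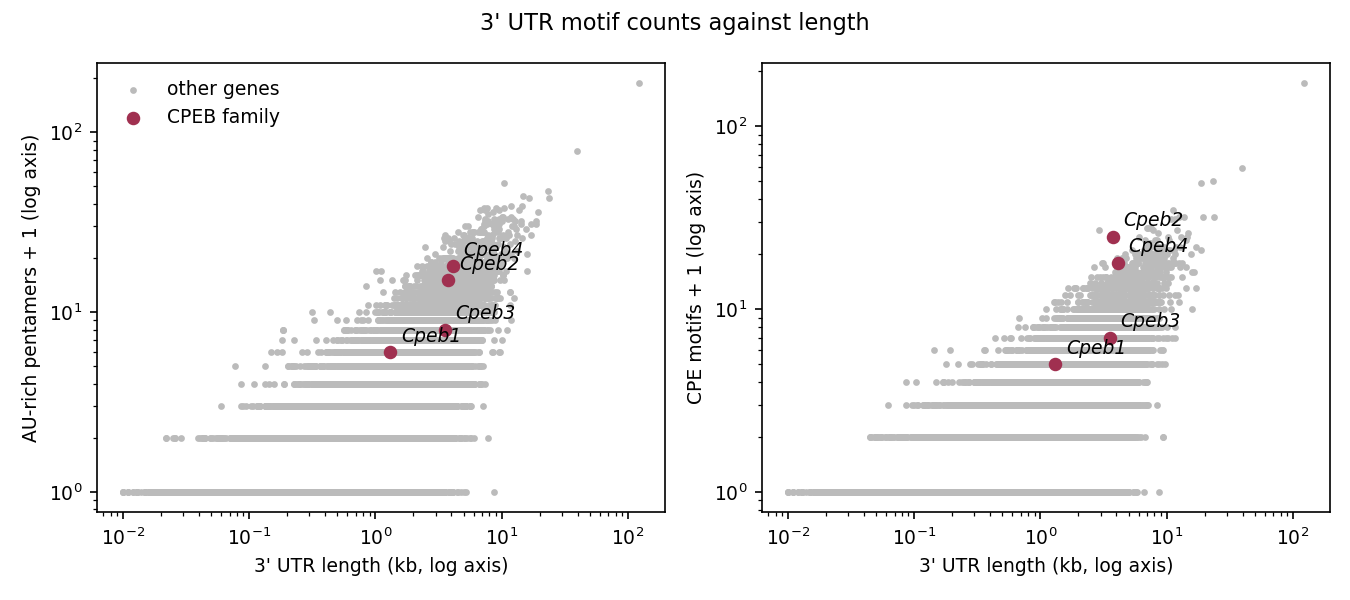
Number of ATTTA pentamers (left) and of CPE letters (right) plus 1, on a log axis, against 3′ UTR length in kb on a log axis, for 20402 genes (grey) and the CPEB family (red). Cpeb2 with 24 and Cpeb4 with 17 CPE copies lie above Cpeb3 with 6, whose 3′ UTR is nearly as long as that of Cpeb2.

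The promoters of Cpeb1 and Cpeb4 are shown because these members moved in opposite directions after LPS. RefSeq (GRCm38.p6) gave 300 bases around the transcription start for 1 start of Cpeb1, 3 of Cpeb3 and 1 of Cpeb4, and Cpeb2 was not among them. By the gene bounds given further below, the windows of Cpeb1 and Cpeb4 lie inside the genes and not at their outer ends. Which starts these cells use was not measured. On both strands the promoters were searched for the kappaB consensus (in 8.46% of 32851 promoters), the AP-1 letters TGANTCA (7.81%), the cAMP response letters TGACGTCA (1.79%), the interferon response letters, GAAA, any pair of bases and GAAA again (3.44%), the E-box CACGTG (7.15%), TATAAA (13.6%), CCAAT (37.4%) and the GC box GGGCGG (35.7%). None of the first 4 had a match in these 5 windows. Cpeb1 held TATAAA and CACGTG once each and 4 GC boxes, counting either strand. Cpeb4 held CCAAT once and 1 GC box, and its GC content was 68.3% against 72.7% in Cpeb1. Matches stand in capitals, and no match says only that these letters are not in the window.
Cpeb1 promoter, chr7:81454709-81455008, strand minus: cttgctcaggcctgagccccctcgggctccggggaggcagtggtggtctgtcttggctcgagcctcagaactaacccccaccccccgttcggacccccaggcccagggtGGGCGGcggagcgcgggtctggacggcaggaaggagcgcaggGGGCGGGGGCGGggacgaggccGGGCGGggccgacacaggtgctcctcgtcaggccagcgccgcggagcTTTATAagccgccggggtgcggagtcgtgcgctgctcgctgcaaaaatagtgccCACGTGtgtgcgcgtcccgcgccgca
Cpeb4 promoter, chr11:31870690-31870989, strand plus: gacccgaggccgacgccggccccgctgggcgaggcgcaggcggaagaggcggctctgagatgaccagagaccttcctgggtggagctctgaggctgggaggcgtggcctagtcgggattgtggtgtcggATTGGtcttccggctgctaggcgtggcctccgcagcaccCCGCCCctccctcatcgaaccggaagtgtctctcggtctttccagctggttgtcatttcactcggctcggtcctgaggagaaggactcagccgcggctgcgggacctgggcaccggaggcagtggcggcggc

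All 4 members were expressed above the limit set for testing, an average rlog of 2.32. In each group the WT values are given below for mice 25, 69, 87 and 88 and the Cpeb4-/- values for mice 2, 3, 55 and 62, in that order. The samples bore the marks of macrophages: the 8 macrophage markers in the table, among them Adgre1, Csf1r and Cd68, had mean rlog values from 9.66 (Mertk) to 18.2 (Lyz2), while the T cell gene Cd3e had a mean of 0.197. Of the 7 neutrophil and precursor markers, S100a8, S100a9, Ngp and Camp passed the limit with means of 6.34, 5.11, 3.57 and 3.38, and Ly6g, Mpo and Elane did not. The limit was also passed by 2 of 3 osteoclast, 2 of 4 fibroblast and 2 of 3 dendritic cell markers. The highest in these lists were Dcstamp (9.83, above Mertk), Pdgfrb (7.37) and Xcr1 (6.04). It was passed by 1 of 4 mast cell and basophil, 1 of 5 erythroid, 0 of 4 T cell and 0 of 4 B cell markers.

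Cpeb4, the gene deleted in the Cpeb4-/- mice, was examined first. In untreated libraries its rlog value was 8.13, 7.88, 7.03 and 7.81 in WT and 7.42, 7.87, 6.88 and 7.74 in Cpeb4-/-. The genotypes overlapped, so RNA counted over this gene did not mark the deletion before LPS. After 1 hr it was 9.35, 9.46, 7.68 and 8.08 in WT and 8.22, 9.35, 9.07 and 9.41 in Cpeb4-/-, and after 3 hr 9.26, 10.06, 8.82 and 10.88 and 9.15, 9.47, 9.18 and 9.02. The ranges again overlapped at both times. After 6 hr the values were 10.42, 10.67, 10.09 and 10.62 in WT and 8.87, 9.45, 9.66 and 8.74 in Cpeb4-/-, and after 9 hr 8.97, 8.94, 8.89 and 9.41 and 7.87, 9.28, 8.83 and 9.02. At 6 hr alone every Cpeb4-/- library lay below every WT library, a separation in one or the other direction that 20.2% of genes had at that time. The difference between Cpeb4-/- and WT at 6 hr was −1.27 (standard error 0.19, adjusted p = 0.00114) by limma, or 2.42-fold lower, with an exact permutation p of 0.029, the smallest that 4 against 4 allow. It was −0.24 in untreated cells, and 0.37, −0.55 and −0.31 after 1, 3 and 9 hr, with adjusted p from 0.357 to 0.611. The interval of the untreated difference ran from −0.78 to 0.31. Which part of Cpeb4 the deletion removes is not given in the sources used here and the value sums reads over the whole gene, so it cannot check the genotype labels, and the genotypes below are as labelled.

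In WT macrophages Cpeb4 rose after LPS, with its highest mean at 6 hr. Against untreated cells the difference was 0.93 (standard error 0.39, adjusted p = 0.0737) at 1 hr, 2.04 (standard error 0.39, adjusted p = 0.000104) at 3 hr, 2.74 (standard error 0.39, adjusted p = 2.1e-06) at 6 hr and 1.34 (standard error 0.39, adjusted p = 0.00458) at 9 hr by limma. The 6 hr rise equals 6.67-fold on this scale and was larger in size than that of 97.1% of the 13100 genes tested. With the mouse as a replicate block, which the design supports because each mouse gave all times, the 1 hr difference had an adjusted p of 0.0228. That fit called 5282 of 13100 genes at 1 hr, against 4443 without the block. At 1 hr all 4 WT mice were above their own untreated Cpeb4 value, by 0.27 to 1.58. From 3 to 6 hr the difference was 0.69 (standard error 0.39, adjusted p = 0.127), the ranges overlapped and mouse 88 was lower at 6 than at 3 hr, so 3 and 6 hr did not differ beyond their spread. Without mouse 88 this difference was 1.01 with an adjusted p of 0.0479. The fall from 6 to 9 hr was −1.40 (standard error 0.39, adjusted p = 0.00526) and was seen in 4 of 4 mice. Between 1 and 3 hr the mean rose by 1.11 (adjusted p = 0.0185), but without mouse 88, whose 3 hr library was the highest at 10.88, the rise was 0.55 with an adjusted p of 0.285. As a percent of the WT peak, Cpeb4 stood at 15.4 ± 4.5 (SD, n = 4) untreated, 32.3 ± 18 at 1 hr, 71.0 ± 45 at 3 hr and 37.9 ± 6.8 at 9 hr.

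Reads over Cpeb4 in the Cpeb4-/- libraries also rose, by 1.54 (standard error 0.29, adjusted p = 0.000199) at 1 hr, and by 1.73, 1.70 and 1.27 at the 3 later times, each at an adjusted p of at most 0.000567. From 1 hr on these means lay between 8.75 and 9.21 and the ranges of neighbouring times overlapped. Whether the rise by 6 hr differed between the genotypes was tested as an interaction, which gave −1.03 (standard error 0.52, adjusted p = 0.339) with an interval from −2.08 to 0.02.

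Cpeb1, the member that represses and then activates maternal mRNAs in oocytes, fell after LPS in both genotypes. In WT it stood at 6.33, 6.16, 6.02 and 6.19 untreated, 6.45, 5.83, 5.86 and 6.09 at 1 hr, 5.22, 4.95, 5.40 and 5.38 at 3 hr, 4.34, 4.04, 4.32 and 3.85 at 6 hr and 4.17, 3.86, 3.57 and 3.59 at 9 hr. From 3 hr on every value lay below every untreated one. Such a separation from untreated, in either direction, was common in WT, with 59.2%, 74.6% and 67.6% of genes at 3, 6 and 9 hr. The untreated and 1 hr values of Cpeb1 overlapped. Against untreated WT cells the difference was −0.12 (standard error 0.16, adjusted p = 0.619) at 1 hr, −0.94 (standard error 0.16, adjusted p = 2.8e-05) at 3 hr, −2.04 (standard error 0.16, adjusted p = 2.7e-10) at 6 hr and −2.38 (standard error 0.16, adjusted p = 3.3e-11) at 9 hr by limma. At 9 hr this was 5.21-fold lower and larger in size than in 97.2% of genes tested, and Cpeb1 stood at 19.4% ± 4.0 (SD, n = 4) of its highest WT mean, the untreated one.

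In Cpeb4-/- libraries Cpeb1 was at 6.30, 6.17, 6.10 and 5.56 untreated, 6.13, 6.22, 6.24 and 5.91 at 1 hr, 5.37, 5.38, 5.23 and 5.03 at 3 hr, 4.52, 4.38, 4.07 and 3.80 at 6 hr and 4.21, 4.62, 4.16 and 4.30 at 9 hr. Its fall by 6 hr was −1.84 (standard error 0.16, adjusted p = 1.4e-09), and by 9 hr −1.71 (standard error 0.16, adjusted p = 6.3e-09). From 6 to 9 hr Cpeb1 decreased in 4 of 4 WT mice, by 0.16 to 0.75, and in 1 of 4 Cpeb4-/- mice, mouse 2, by 0.32, so the genotypes overlapped in this step, and its difference between them was not tested. The WT step was −0.34 with an adjusted p of 0.0811, or 0.0421 with the replicate block. For this step 6727 of 13100 genes were called without and 7483 with the block. At 9 hr the genotype difference was 0.53 (standard error 0.17, adjusted p = 0.0785), with 3 of 4 libraries above every WT library (two-sided exact permutation p = 0.057), and by a joint fit of the 40 libraries with a random replicate block for the mouse the adjusted p was 0.0162. That joint fit called 2378 of 13103 genes at 9 hr, against 1029 of 13008 in the fit of 8 libraries. The change from untreated to 9 hr differed between genotypes by 0.67 (standard error 0.23, adjusted p = 0.15) without and at an adjusted p of 0.0264 with the mouse as a fixed replicate block. For this change 231 of 13103 genes were called without and 654 with the block. At the earlier times the genotype differences lay between −0.14 and 0.07, within the spread of the libraries, and the 6 hr interval ran from −0.33 to 0.45.

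Cpeb2, which regulates translation of HIF-1alpha among other mRNAs, rose briefly and then dipped. WT values were 10.41, 10.27, 9.92 and 10.04 untreated, 10.80, 10.84, 10.28 and 10.49 at 1 hr, 9.03, 9.18, 9.01 and 9.24 at 3 hr, 9.97, 10.10, 9.87 and 9.95 at 6 hr and 10.04, 9.90, 9.91 and 10.08 at 9 hr. The 3 hr libraries lay below those of all other times. In either direction, 59.2% of genes had 3 hr libraries apart from untreated ones, 49.2% from 1 hr and 57.1% from 6 hr ones. The remaining times of Cpeb2 overlapped their neighbours in the order of means. The change from untreated was 0.44 (standard error 0.11, adjusted p = 0.00393) at 1 hr and −1.04 (standard error 0.11, adjusted p = 6.1e-08) at 3 hr, and the step from 1 to 3 hr was −1.49 (standard error 0.11, adjusted p = 4.1e-10), or 2.80-fold lower, in 4 of 4 mice. By 6 hr Cpeb2 had risen again by 0.86 (standard error 0.11, adjusted p = 1.4e-06), and at 6 and 9 hr it was −0.19 and −0.18 from untreated (adjusted p = 0.133 and 0.159). With quantile normalisation of the libraries these last differences were −0.32 and −0.29, with adjusted p of 0.0159 and 0.0289.

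The same course was seen in Cpeb4-/- libraries at a higher level. Cpeb2 was at 10.52, 10.56, 10.52 and 10.54 untreated, 10.78, 11.04, 10.87 and 11.04 at 1 hr, 9.69, 9.78, 9.58 and 9.53 at 3 hr, 10.43, 10.59, 10.57 and 10.42 at 6 hr and 10.34, 10.84, 10.63 and 10.72 at 9 hr. Every mouse rose from untreated to 1 hr and fell from 1 to 3 hr, as in WT, and the dip at 3 hr was −0.89 (standard error 0.08, adjusted p = 4.8e-09). At untreated, 3, 6 and 9 hr each Cpeb4-/- library exceeded the highest WT library, and at 1 hr 3 of 4 did. In bulk RNA, fewer cells with a transcript and less of it per cell cannot be told apart, and this holds for every difference given here. The genotype difference was 0.53 (standard error 0.07, adjusted p = 0.0079) at 3 hr, 0.53 (standard error 0.06, adjusted p = 0.000236) at 6 hr and 0.65 (standard error 0.10, adjusted p = 0.00472) at 9 hr by limma, which is 1.44-fold, 1.44-fold and 1.57-fold. Untreated and at 1 hr it was 0.37 and 0.33 with adjusted p of 0.0756 and 0.107, which became 0.0263 and 0.0148 in a joint fit with a random replicate block for the mouse. That fit called 414 of 13103 genes untreated and 4323 at 1 hr. The fits of 8 libraries called 171 of 13095 and 251 of 13118. Within batch 1 the 5 differences ran from 0.32 to 0.72 and within batch 2 from 0.27 to 0.58.

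Cpeb3, known for its part in synaptic plasticity and memory, was highest at 6 hr and lowest at 9 hr. In WT it was at 8.18, 8.00, 7.81 and 8.03 untreated, 8.66, 8.64, 8.07 and 8.27 at 1 hr, 8.04, 8.02, 7.89 and 8.36 at 3 hr, 8.92, 8.95, 8.81 and 9.06 at 6 hr and 7.40, 7.38, 7.40 and 7.43 at 9 hr. The 6 hr libraries lay above all libraries of the other times. In either direction, 74.6% of genes were apart from untreated at 6 hr, 67.6% at 9 hr, and 52.6% were apart between 6 and 9 hr. The 9 hr libraries of Cpeb3 lay below all libraries of the other times. Against untreated cells the difference was 0.40 (standard error 0.12, adjusted p = 0.0104) at 1 hr, 0.07 (standard error 0.12, adjusted p = 0.598) at 3 hr, 0.93 (standard error 0.12, adjusted p = 3.8e-07) at 6 hr and −0.60 (standard error 0.12, adjusted p = 0.000125) at 9 hr by limma. From 1 to 3 hr Cpeb3 differed by −0.33 (standard error 0.12, adjusted p = 0.0198), with 3 of 4 mice down and mouse 88 up by 0.09. This call was lost without mouse 25 or 69 and after quantile normalisation (adjusted p = 0.0937). The rise at 1 hr had an adjusted p of 0.0586 without mouse 25 and 0.122 without mouse 69. From 6 to 9 hr Cpeb3 fell by 1.53 (standard error 0.12, adjusted p = 1.4e-09), a larger step than in 99.3% of genes tested, and from 100% of its WT peak it stood at 34.5% ± 0.59 (SD, n = 4).

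Cpeb4-/- libraries had Cpeb3 at 8.32, 8.42, 8.37 and 8.32 untreated, 8.50, 8.86, 8.77 and 8.77 at 1 hr, 8.33, 8.30, 8.37 and 8.25 at 3 hr, 9.02, 9.20, 9.28 and 8.93 at 6 hr and 7.91, 8.26, 8.02 and 8.12 at 9 hr. The rises at 1 and 6 hr and the fall at 9 hr were called here as well, with a 6 to 9 hr step of −1.03 (standard error 0.08, adjusted p = 2.5e-09). Against untreated Cpeb4-/- cells the 9 hr value was −0.28 (standard error 0.08, adjusted p = 0.00536), and −0.11 with an adjusted p of 0.234 after quantile normalisation. Cpeb3 was higher in Cpeb4-/- than in WT at 9 hr by 0.68 (standard error 0.08, adjusted p = 0.002), or 1.60-fold, with all 4 libraries above WT (two-sided exact permutation p = 0.029) and differences of 0.78 and 0.57 within the batches. In untreated cells all 4 libraries also lay above WT, with a difference of 0.35 (standard error 0.08, adjusted p = 0.0575), and at 1, 3 and 6 hr the difference was 0.32, 0.23 and 0.17 with adjusted p from 0.134 to 0.173. In the joint fit with the random replicate block the untreated and 1 hr differences had adjusted p of 0.0478 and 0.0209. That fit called 414 and 4323 of 13103 genes at these times.

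**Figure D2:**
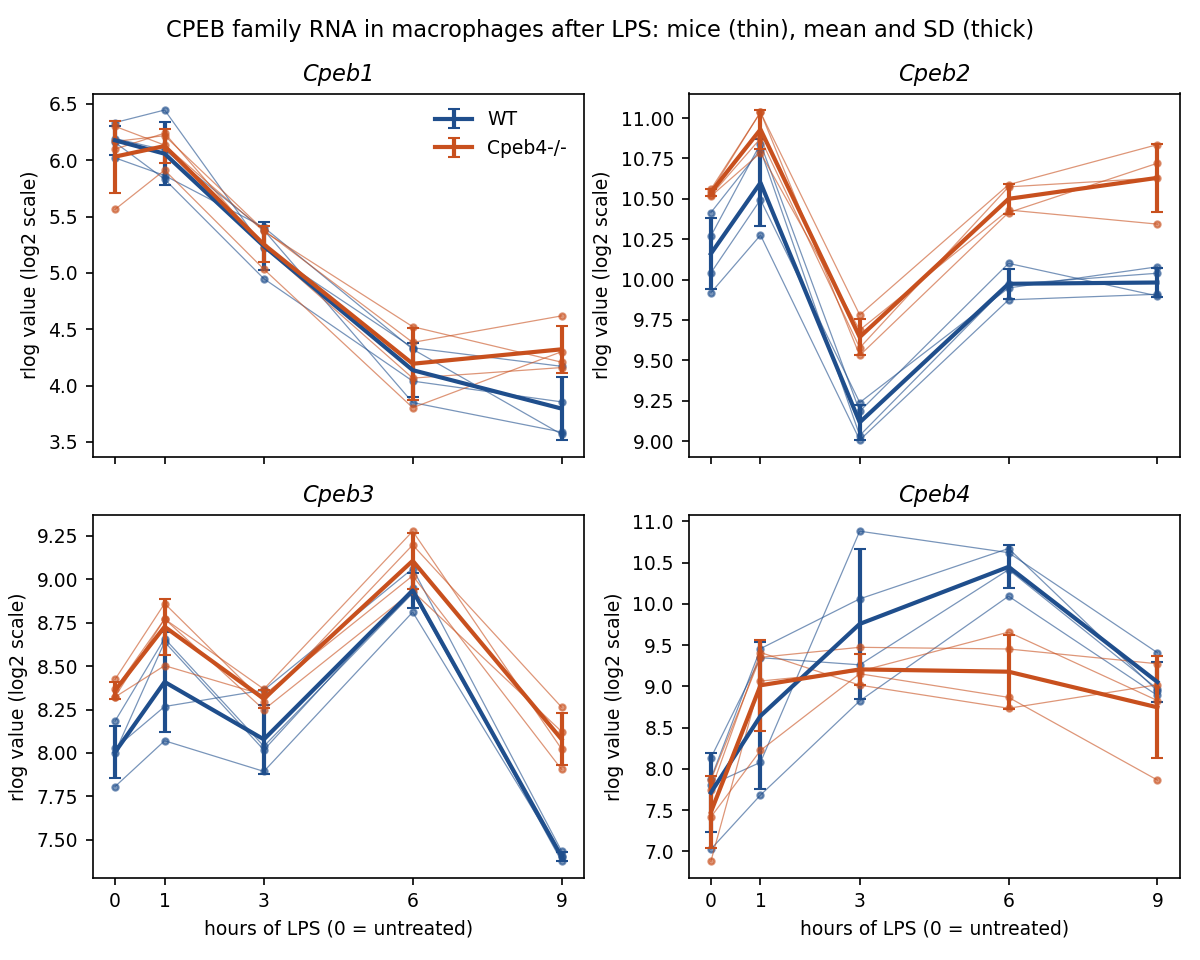
rlog value (log2 scale) of each member against hours of LPS, with thin lines for single mice, thick lines for the mean and bars for the SD of 4 mice, in WT (blue) and Cpeb4-/- (orange). Cpeb1 is lower from 3 hr on, Cpeb2 dips at 3 hr, Cpeb3 is highest at 6 hr and lowest at 9 hr, and the mean of Cpeb4 is highest at 6 hr in WT, where the Cpeb4-/- mean is 1.27 lower.

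Counted together, the members were called about as often as genes in general after LPS. In WT, 2 of 4 were called at 1 hr (33.9% of 13100 genes), 3 of 4 at 3 hr (67.8%), 3 of 4 at 6 hr (77.9%) and 3 of 4 at 9 hr (71.5%). In Cpeb4-/- 3 of 4 were called at each time, against 43.8%, 71.3%, 79.1% and 72.8% of 13116 genes. From one time to the next, 4 of 4 were called in WT from 1 to 3 hr (60.1% of genes), 3 of 4 from 3 to 6 hr (63.7%) and 2 of 4 from 6 to 9 hr (51.4%), and in Cpeb4-/- 3 of 4 (64%), 3 of 4 (64.4%) and 1 of 4 (53.6%). These comparisons share libraries. The members differed instead in the times at which they moved: at 3 hr in WT Cpeb4 was higher, Cpeb1 and Cpeb2 were lower and Cpeb3 was not called, and at 6 hr Cpeb3 and Cpeb4 were higher, Cpeb1 was lower and Cpeb2 was not called.

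Between genotypes far fewer genes were called, and Cpeb2 and Cpeb3 stood on the higher side. In untreated cells and at 1 hr limma called 0 of 4 members at an adjusted p under 0.05, where 0.741% and 0.976% of genes were called higher in Cpeb4-/-, and at an unadjusted p under 0.05 it gave 2 of 4 at each of these times, Cpeb2 and Cpeb3, where 17.6% of genes untreated and 35.3% at 1 hr passed that limit. At 3 hr 1 member was called higher (1.81% of genes), at 6 hr 1 higher (6.4%) and 1 lower (9.92%), and at 9 hr 2 higher (4.69%). Members whose Cpeb4-/- libraries all lay above WT numbered 2 of 4 untreated (5.51% of genes), 0 of 4 at 1 hr (7.55%), 1 of 4 at 3 hr (7.05%), 1 of 4 at 6 hr (8.16%) and 2 of 4 at 9 hr (8.35%). Cpeb2 was among 68 of 12676 genes (0.536%) called higher at 3, 6 and 9 hr. These are the times of its own calls and they share mice, so this share is a description only. Averaged over the 5 times in each mouse, the difference was 0.48 (standard error 0.06, adjusted p = 0.0027) for Cpeb2 and 0.35 (standard error 0.06, adjusted p = 0.00875) for Cpeb3, where 9.46% of genes were called higher. In both genes 4 of 4 mouse means lay above WT (two-sided exact permutation p = 0.029, the smallest possible). The share of all genes whose mouse means separate in this way was not computed, so this separation is a description only. For Cpeb1 the average was 0.10 with an interval from −0.13 to 0.34, and for Cpeb4 −0.40 from −0.86 to 0.06, or −0.605 with a limma adjusted p of 0.0288 without WT mouse 87.

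Whether these differences changed with LPS was tested against the untreated difference. Of the 16 interaction tests of 4 members at 4 times, limma called 0 without the replicate block, where 0.00763% to 2.94% of 13103 genes were called, and 2 had an unadjusted p under 0.05, those of Cpeb1 and Cpeb3 at 9 hr, where 1.57%, 5.03%, 15.1% and 12% of genes passed that limit after 1, 3, 6 and 9 hr. For Cpeb2 the interaction at 9 hr was 0.28 (interval −0.02 to 0.57) and for Cpeb3 0.32 (interval 0.02 to 0.62, adjusted p = 0.363). With the mouse as a fixed block 1 was called, that of Cpeb1 at 9 hr given above. At 9 hr that fit called 654 of 13103 genes, against 231 without the block.

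**Figure D3:**
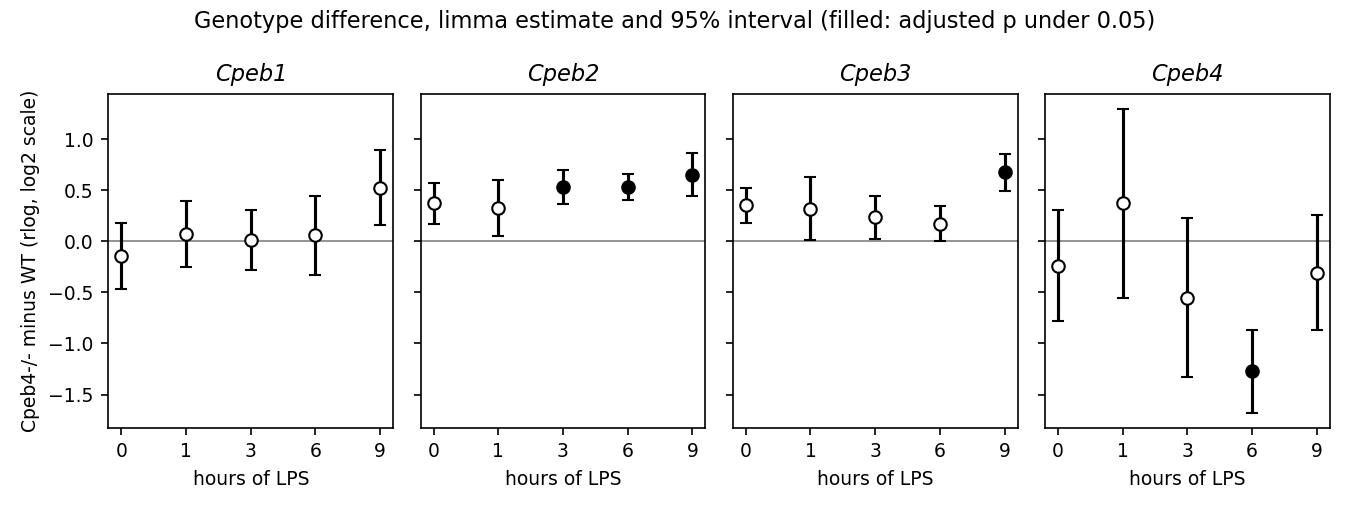
Cpeb4-/- minus WT difference in rlog value (log2 scale) of each member at 0, 1, 3, 6 and 9 hr of LPS, with the limma estimate and its 95% interval, filled where the adjusted p is under 0.05. Cpeb2 is filled at 3, 6 and 9 hr, Cpeb3 at 9 hr, Cpeb4 at 6 hr below the line, and Cpeb1 at no time.

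Markers of the cells moved with the genotype as well. Of the 8 macrophage markers in the table, 4 were lower and 1 was higher in Cpeb4-/- averaged over the 5 times at a limma adjusted p under 0.05, where 9.46% of genes were higher and 9.62% lower. Lyz2, which encodes lysozyme, differed by −0.48 and Cd14, the LPS co-receptor, by −0.32, while Itgam differed by 0.19. The log2 of the summed level of the 8 macrophage markers ranged from 18.7 to 19.1 in Cpeb4-/- and from 19.0 to 19.5 in WT, which overlap. Each such range spans the 20 libraries of a genotype at all 5 times. It holds the changes with LPS too, so an overlap says little about genotype. Of the 2 osteoclast markers tested Ctsk was higher by 0.57 and Dcstamp was not called, and the list's summed level ranged from 9.9 to 11.0 in Cpeb4-/- and from 9.41 to 10.7 in WT. The ranges of the lists for neutrophil precursors (6.29 to 8.14 against 6.08 to 8.11), T cells (2.06 to 2.66 against 2.18 to 2.66), dendritic cells (4.83 to 7.12 against 5.08 to 7.23), mast cells and basophils (2.79 to 4.5 against 2.66 to 4.05) and fibroblasts (5.67 to 9.47 against 5.54 to 8.74) also overlapped between the genotypes, and the globin genes Hba-a1 and Hbb-bs were at 0 in all libraries. Of the markers tested in these lists, 1 of 2 dendritic cell markers was higher and 1 lower, 1 of 1 mast cell and 1 of 2 fibroblast markers were higher, and 0 of 4 neutrophil markers were called, while no T cell marker passed the filter. Some markers of other cells also moved with LPS. At 6 hr in WT the fibroblast markers Pdgfrb and Dcn differed by 3.21 and 1.74. The neutrophil markers S100a8 and Camp differed by 1.76 and 1.53, and S100a9 and Ngp by 0.21 and −0.34 without a call. The dendritic cell markers Xcr1 and Zbtb46 differed by 1.34 and −0.42 and the mast cell marker Gata2 by −1.31. Of the osteoclast markers Dcstamp differed by −0.97 and Ctsk by 0.04 without a call. Of the macrophage markers 5 were higher and 1 lower. The part of these markers in the differences of the members was not tested.

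The balance within the family was described by dividing each back-transformed level by the length of the union of its annotated exons. Before treatment Cpeb2 made up 63.2% ± 2.0 (SD, n = 4) of the family level per kb in WT, Cpeb3 15.0% ± 1.0, Cpeb4 14.4% ± 2.4 and Cpeb1 7.46% ± 0.63. By this measure of RNA Cpeb2 was the largest member in untreated cells. The lengths are annotated ones, and which transcripts these cells use was not measured. At 3 and 6 hr Cpeb4 was the largest in WT, with 53.6% ± 13 and 52.5% ± 3.3, and Cpeb2 held 28.3% ± 8.1 and 30.7% ± 2.3. By 9 hr Cpeb2 was again first with 54.1% ± 2.2, Cpeb4 held 34.9% ± 3.0, Cpeb3 9.56% ± 0.71 and Cpeb1 1.41% ± 0.32. In Cpeb4-/- libraries Cpeb2 was the largest at every time, and its share went from 68.1% ± 1.8 in untreated cells to 41.4% ± 1.1 at 3 hr, with 61.5% ± 3.5 at 1 hr, before 52.1% ± 3.9 at 6 hr and 64.8% ± 3.2 at the end. At 3 hr its lead over reads from Cpeb4 (37.6% ± 2.0) was small. The whole length of Cpeb4 was used in these libraries too, although which part the deletion removes is not given. The Cpeb4 share and the order in Cpeb4-/- are therefore uncertain. With the longest coding transcript as the length instead, a choice made after the data were seen, mean shares moved by at most 3.54 percentage points, and the order of the members was the same in 9 of 10 groups, the exception being Cpeb4-/- at 6 hr, where Cpeb3 (23.5%) and Cpeb4 (23.4%) changed places.

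**Figure D4:**
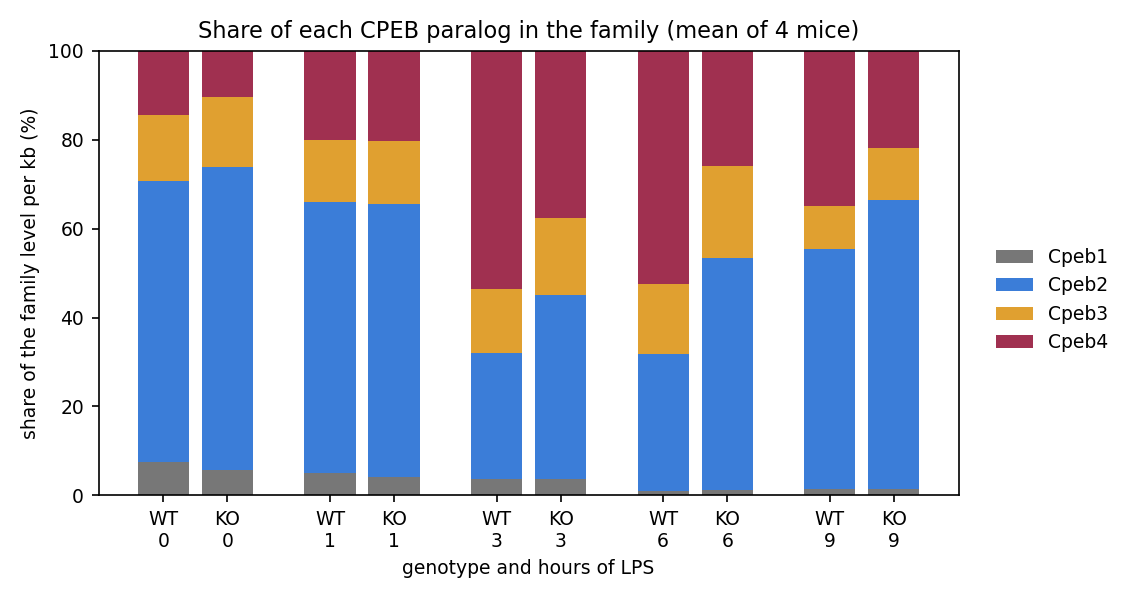
Share of each member in the family level per kb, in percent (mean of 4 mice), for WT and Cpeb4-/- (KO) at 0, 1, 3, 6 and 9 hr of LPS. In WT Cpeb4 (dark red) passes Cpeb2 (blue) at 3 and 6 hr. In Cpeb4-/-, with the whole annotated length of Cpeb4 used, Cpeb2 stays the largest.

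Among the libraries of one group, Cpeb2, Cpeb3 and Cpeb4 deviated together. After subtracting each group's mean, Pearson r over the 40 libraries was 0.894 between Cpeb3 and Cpeb4, 0.855 between Cpeb2 and Cpeb4 and 0.822 between Cpeb2 and Cpeb3, and 0.927, 0.853 and 0.842 over the 20 WT and 0.833, 0.859 and 0.783 over the 20 Cpeb4-/- libraries. Cpeb1 did not follow, with r of 0.08 to Cpeb4, 0.23 to Cpeb2 and 0.25 to Cpeb3. Of 13102 genes, 5.31% had a larger r to Cpeb4 than Cpeb3 had and 8.58% a larger one than Cpeb2, while 0.649% had a larger r to Cpeb3, and 3.04% to Cpeb2, than Cpeb4 had. The points share mice, cultures and libraries, and no p is given. The lowest deviations of Cpeb4 were those of WT mouse 87 at 1 hr (−0.96) and 3 hr (−0.93), where Cpeb2 deviated by −0.33 and −0.11 and Cpeb3 by −0.34 and −0.18. The highest was that of WT mouse 88 at 3 hr (1.12). At 1 hr the WT mice 87 and 88, which shared a cage, had Cpeb4 at 7.68 and 8.08 and the other two at 9.35 and 9.46, whereas at 3 hr mouse 88 was the highest and mouse 87 the lowest.

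**Figure D5:**
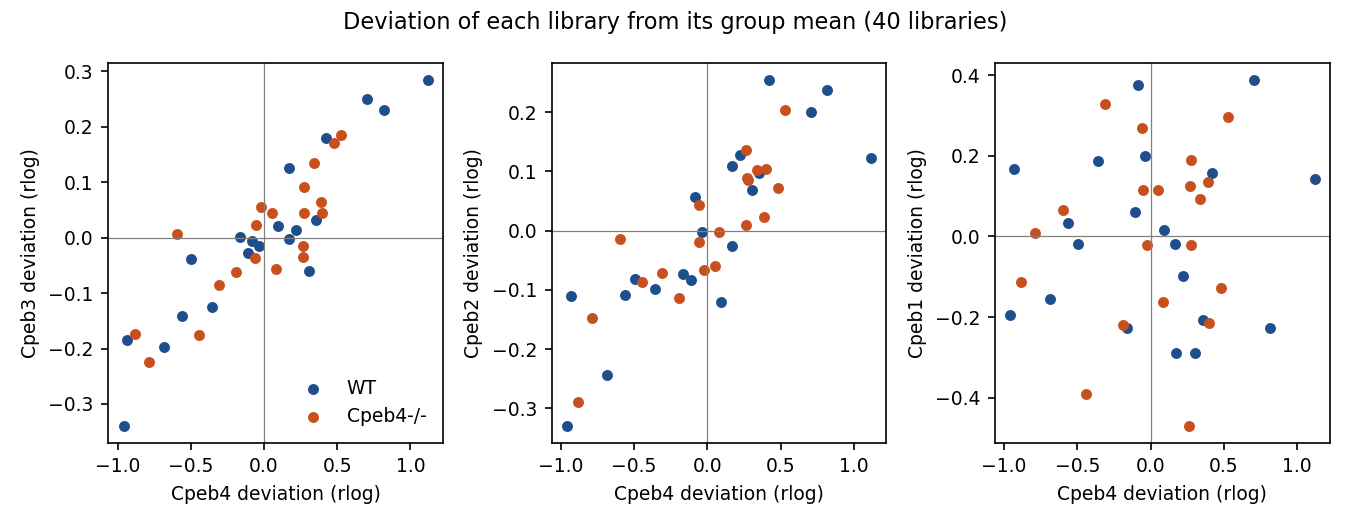
Deviation of Cpeb3 (left), Cpeb2 (middle) and Cpeb1 (right) from the group mean against that of Cpeb4, all in rlog units (log2 scale), for 40 libraries in WT (blue) and Cpeb4-/- (orange). The points rise along a line for Cpeb3 (r = 0.894) and Cpeb2 (r = 0.855) and are scattered for Cpeb1 (r = 0.0806).

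For each member the 5 genes with the most similar WT course were named, by Pearson r over the 20 WT libraries among 13099 other genes. Nearest to Cpeb4 were Btaf1 (r = 0.988), Cnot7 (0.981), Rufy3 (0.981), Med13 (0.981) and Nup98 (0.979), and their r over the 20 Cpeb4-/- libraries was 0.965, 0.908, 0.98, 0.948 and 0.956. Cnot7 encodes a catalytic deadenylase of the CCR4-NOT complex. Nearest to Cpeb2 were Gas2l3 (0.971), Fos (0.963), Ranbp9 (0.953), Dclre1b (0.953) and Bbs10 (0.945), with 0.966, 0.917, 0.858, 0.807 and 0.796 in Cpeb4-/-. Fos is an immediate early gene and a subunit of AP-1. Nearest to Cpeb3 were Mbnl1 (0.957), Acer3 (0.923), Akap7 (0.917), Mycbp2 (0.891) and Mertk (0.891), with 0.692, 0.955, 0.833, 0.954 and 0.765, and nearest to Cpeb1 were Tpbgl (0.977), Klhl23 (0.975), Cd28 (0.975), Focad (0.974) and Aaas (0.974), with 0.945, 0.933, 0.969, 0.956 and 0.967. These r describe points that share mice and a strong time course.

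Genes that lie beside the members on the chromosome did not share their courses in any uniform way. Cpeb4 (chromosome 11, 31870104 to 31935635 in GRCm38.p6) has Bod1 and Asb3 on one side and Snrnp25 and Rhbdf1 on the other, and at 6 hr in WT these differed from untreated by 0.21, 0.10, −0.68 and −0.14. Cpeb1 (chromosome 7, 81347026 to 81458001) has Pde8a on one side (−0.28) and 2900076A07Rik and Fsd2 on the other (−0.52 and −0.96). Cpeb2 (chromosome 5, 43225349 to 43289724) has Bod1l and Rab28 (−0.12 and 0.17) and Cc2d2a and Fbxl5 (−0.35 and 1.36), and its genotype difference at 9 hr of 0.65 stood beside 0.17, −0.13, 0.23 and −0.05 in these genes. Cpeb3 (chromosome 19, 37019341 to 37207620) has Btaf1 and Fgfbp3 (0.98 and 0.11) and Ide and Kif11 (−0.70 and −2.16). Btaf1 is also the gene whose WT course was most like that of Cpeb4, on another chromosome. March5 overlaps the start of Cpeb3 and differed by 2.18 at 6 hr and −0.09 between genotypes at 9 hr. Whether the counting used strand is not stated, so reads in that overlap cannot be assigned.

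The rest of the pathway was counted from lists chosen with results of these data known. Of the 15 genes of the cytoplasmic polyadenylation machinery, 8 were higher and 4 lower at 6 hr in WT, where 38.7% of genes were higher and 39.2% lower, and their median difference was 0.34 against −0.02 over all genes. Tent4a, a non-canonical poly(A) polymerase, differed by 1.91, and Tent2, the polymerase GLD2 that CPEB proteins recruit, by 1.04. Pabpc4, a cytoplasmic poly(A)-binding protein, differed by −0.84. Of the 17 repression and deadenylation partners tested, 10 were higher and 4 lower, with a median of 0.43. Among them were the translational repressor Msi2 at 1.31, the helicase Ddx6 at 0.56, and Tob1, an adaptor that brings CPEB3 to the CCR4-NOT deadenylases, at −0.71. Of 14 kinases and other enzymes that act on CPEB proteins 4 were higher and 8 lower, with a median of −0.69 and with the mitotic kinases Aurka at −1.72, Plk1 at −1.92 and Cdk1 at −1.70.

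Of the 4 regulators of AU-rich mRNA stability, 3 were higher and 1 was lower at 6 hr in WT, with a median of 1.36. Zfp36, which encodes tristetraprolin, differed by 2.20, Mapkapk2, the kinase that phosphorylates it, by 1.98, Elavl1 by 0.73, and Mapk14, the p38alpha kinase, by −0.69. Of the 10 mRNAs tested that are known as CPEB targets 4 were higher and 6 lower, with a median of −0.77. Plat, the tissue plasminogen activator, differed by 1.76, the cell cycle inhibitor Cdkn1a by 1.70 and Hif1a by 1.68, and the cyclins Ccna2 and Ccnb1 by −2.30 and −1.46.

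Between genotypes at 6 hr, 1 machinery gene was higher and 1 lower, 4 partners were higher and 1 lower, 1 kinase was higher and 1 lower, 1 stability regulator was higher and 1 lower, and 5 targets were higher and 1 lower, where 6.4% of genes were called higher and 9.92% lower. Mapk14 is counted both as a kinase and as a stability regulator, and Camk2a (−1.53 at 6 hr in WT) both as a kinase and as a target. The partners called higher were Tob2, the paralog of Tob1, by 0.52 (standard error 0.045, limma adjusted p = 6.6e-05), Tob1 by 0.38 (standard error 0.061, limma adjusted p = 0.00194), Cnot7 by 0.16 and Cnot8 by 0.14. Tob2 was also called higher in untreated cells (0.39) and after 1, 3 and 9 hr (0.41, 0.47 and 0.63), and Tob1 in untreated cells (0.33) and at 9 hr (0.64). Among the machinery genes Pabpc1l differed by −0.87 and Tent4b by 0.17. Among the targets Plat differed by 0.54, Vegfa by 0.37, Hif1a by 0.35 and Cdkn1a by −0.21.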

How the data were processed

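Poly(A) RNA from 40 BMDM cultures, 1 for each of 8 mice at 5 times, was sequenced by the authors. Per the labels and the study's methods, the authors aligned reads to mm10 with STAR 2.3.0e, counted them per gene with featureCounts and transformed the counts with DESeq2's rlog, and the deposited table holds these log2 values for 27179 genes, of which 6395 were at 0 in all libraries. Whether counting used strand is not given in the sources used here. The table keeps no read counts, so no depth per library, counting interval or count test could be given, and precision rests on the spread of 4 mice a group. No pair of libraries was identical.

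The rlog values were fitted with limma 3.58.1 (R 4.3.3; lmFit and eBayes with a variance trend) over all genes whose average rlog in the fitted libraries reached 2.32, the log2 of 5 reads. P-values were Benjamini-Hochberg adjusted over all genes of a contrast, and a call is an adjusted p under 0.05. WT and Cpeb4-/- courses were fitted on 20 libraries each, genotype differences on the 8 libraries of a time, averages on 8 mouse means and interactions on 40 libraries. Members were also compared by two-sided exact permutation of 4 against 4, whose smallest p is 0.029. Intervals are 95% confidence intervals of limma and are not adjusted. Some of the limma contrasts were tried, without a replicate block, on simulated data. The simulated noise was independent between libraries, so it does not check the pairing by mouse or the fits with a block. Each mouse gave all 5 times, which pairs the libraries, and deviations of the same mouse at different times had a median r of 0.29, against −0.091 for different mice, with 68 of 80 same-mouse pairs over 0.1.

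Family shares and percent of peak used 2 raised to the rlog value. Sequences came from RefSeq (GRCm38.p6) promoters and from the GRCm38 genome with GENCODE M21. The genes named were the 4 members, the 5 genes most correlated with each over 20 WT libraries and the nearest tested neighbours, and genes of the lists were named after their values were seen. The members and lists were chosen with earlier results of these data known. Alternatives changed the filter, variance trend, batch term, normalisation, replicate block, fit and length, and left out each mouse. Some marker and neighbouring genes are not reported here.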

Additional observations from a re-analysis of the deposited data

Results flagged for a closer look

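Cpeb4 at 9 hr in WT had 1 library apart from the others. Mouse 88 stood at 9.409 and the other mice between 8.89 and 8.97, so that the gap to the nearest library was 0.848 of the whole range, above Dixon's critical value for 4 samples at the 95% level. 40 groups of 4 were examined, 1 for each member, genotype and time, and chance gives such a gap in about 1 of 20 groups.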

How the results depend on the processing

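Of 96 results with a limma test, 46 were called, and none of these changed direction under any alternative run. Over all alternatives 1132 of 1194 values kept their direction and side of the threshold, 7 lost a call, 30 gained one and 25 changed sign, and the cause was not tested. The adjusted p stands in brackets.

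With quantile normalisation, which moved the median of all genes by less than 0.1, Cpeb4 in WT at 1 hr was 1.04 (0.0407), Cpeb2 in WT −0.323 at 6 hr (0.0159) and −0.295 at 9 hr (0.0289), Cpeb3 in WT from 1 to 3 hr −0.229 (0.0937), Cpeb2 in Cpeb4-/- −0.245 at 6 hr (0.00565) and −0.0635 at 9 hr (0.458), Cpeb3 in Cpeb4-/- 0.0752 at 3 hr (0.396) and −0.105 at 9 hr (0.234), Cpeb4 in Cpeb4-/- from 3 to 6 hr 0.0237 (0.949), and Cpeb1 between genotypes at 3 hr −0.025 (0.918). With the mouse as a fixed replicate block, Cpeb4 in WT at 1 hr was 0.93 (0.0228), Cpeb1 in WT from 6 to 9 hr −0.341 (0.0421) and the Cpeb1 interaction at 9 hr 0.67 (0.0264). For these 3 contrasts, in that order, 5282, 7483 and 654 genes were called with the block, against 4443, 6727 and 231 without it. In 1 fit of all 40 libraries, Cpeb4 in WT at 1 hr was 0.93 (0.0423), and the genotype differences were 0.374 (0.0404) for Cpeb2 untreated, 0.329 (0.0195) for Cpeb2 and 0.318 (0.0242) for Cpeb3 at 1 hr and 0.526 (0.0232) for Cpeb1 at 9 hr. With the mouse as a random replicate block in that fit these had adjusted p of 0.0263, 0.0148, 0.0209 and 0.0162, and Cpeb3 untreated was 0.355 (0.0478), or 0.355 (0.0415) with batch as a term. Between genotypes untreated, at 1 and at 9 hr, the fit of 40 libraries called 326, 4182 and 2280 of 13103 genes. With the random block it called 414, 4323 and 2378. The block changed no other call. With an average rlog of 5 as the limit, Cpeb1 between genotypes at 6 and 9 hr was not tested and has no value.

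Leaving out each mouse in turn, calls were lost for Cpeb3 in WT at 1 hr (0.327 to 0.459) and from 1 to 3 hr (−0.473 to −0.234) without WT mouse 25 or 69, and for Cpeb4 in WT from 1 to 3 hr (0.553 to 1.52) without WT mouse 88. Calls were gained without WT mouse 87 for Cpeb4 in WT at 1 hr (0.715 to 1.15), Cpeb2 in WT at 6 hr (−0.236 to −0.102) and 9 hr (−0.252 to −0.114) and the Cpeb4 genotype average (−0.605 to −0.259). They were gained without WT mouse 88 for Cpeb4 in WT from 3 to 6 hr (0.502 to 1.01) and Cpeb3 between genotypes at 3 hr (0.173 to 0.329), and without WT mouse 25 for Cpeb2 (0.293 to 0.459) and Cpeb3 (0.289 to 0.414) between genotypes untreated. They were gained without WT mouse 69 for Cpeb2 between genotypes at 1 hr (0.22 to 0.408), and without Cpeb4-/- mouse 2 for Cpeb2 in Cpeb4-/- at 9 hr (0.0369 to 0.187) and from 6 to 9 hr (0.0719 to 0.203) and for Cpeb1 between genotypes at 9 hr (0.427 to 0.651).

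Uncalled values whose sign changed were Cpeb3 in WT at 3 hr (−0.0139 to 0.146), Cpeb2 in WT from 6 to 9 hr (−0.0328 to 0.0781), Cpeb4 in Cpeb4-/- from 1 to 3 hr (−0.0519 to 0.39) and from 3 to 6 hr (−0.196 to 0.0579), the interactions of Cpeb3 at 1 hr (−0.0911 to 0.0407) and Cpeb4 at 3 hr (−0.619 to 0.03) and 9 hr (−0.295 to 0.206), and Cpeb1 between genotypes untreated (−0.234 to 0.0121) and at 1 hr (−0.00771 to 0.197), 3 hr (−0.0817 to 0.0881) and 6 hr (−0.0526 to 0.187). As a percent of the WT peak, Cpeb2 at 9 hr ranged from 61 to 69.3 and Cpeb3 at 9 hr from 33.6 to 35.3. Depth is not known from the table, and rlog values understate changes of low genes such as Cpeb1.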
